A study of Rattus norvegicus with 23 samples.

Results

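The interleukin 1 (IL-1) family is described here in the lung of elderly rats that inhaled a nanostructured aerosol of titanium dioxide (TiO2). The members were the 10 genes Il1a, Il1b, Il18, Il33, Il1rn, Il18bp, Il1r1, Il1r2, Il1rl1 and Il1rap, taken by symbol from the probes of the array and not by any measured value. They had 15 of the 45598 probes (24 spots) and were 10 of the 25597 genes with a symbol. All 10 passed the filter on dim probes, as did 23010 genes in all.

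Male F344 rats, 19 months old at the onset, inhaled by the nose only for 6 hours a day, 5 days a week, during 4 weeks. Controls breathed filtered air and exposed rats breathed TiO2 at 10 mg/m3, so that restraint in the inhalation tower was shared by all rats. RNA of the accessory lung lobe was hybridised to Agilent single-colour arrays, 1 rat per array, at the end of exposure (D0, 6 control and 5 exposed rats) and 28 days later (D28, 6 control and 6 exposed rats). For the exposed rats of D28 one label field names day 0 in conflict with the sample titles and descriptions, and the titles were taken as correct. Signals are log2 units after quantile normalisation, so that 1 unit is a doubling, and fold changes are exposed over control. A gene was called when its adjusted p was below 0.05 (limma, Benjamini-Hochberg) and it differed at least 1.5-fold, upwards or downwards, a limit of 0.585 on the log2 scale. The arrays had 69.5 to 77.9% of their spots well above background, any pair of arrays correlated at 0.958 to 0.989, and no member was saturated. The arrays lay on 5 slides, each scanned on its own day, and 1 slide held a single control array of D28. The whole lobe is a mixture of cells, and fewer cells of a type cannot be told apart from less RNA per cell.

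IL-1α (Il1a) and IL-1β (Il1b) are alarm cytokines that bind the receptor IL-1R1 (Il1r1), which then recruits its accessory protein (Il1rap) and signals through MyD88 to NF-κB. The pathway has several brakes: the receptor antagonist (Il1rn) occupies IL-1R1 without signalling, and the decoy receptor IL-1R2 (Il1r2) binds IL-1 and lacks a signalling domain. IL-18 (Il18), which promotes interferon γ, is held by its binding protein (Il18bp), while IL-33 (Il33) is released from damaged barrier cells and signals through ST2 (Il1rl1) and the same accessory protein. IL-1β and IL-18 are made as inactive precursors that inflammasomes cleave, a step that RNA levels do not show.

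The probes of the members that the results turn on are given in lower case, 5′ to 3′, as the array files print them. Positions are those of rn4 in the files, and no annotation of exons and UTRs of that build was used here. Il1rn had a single probe spotted 10 times (chr3:2613130-2613189, plus strand), Il1r2 a probe that spans 2841 bases of the genome and so crosses a splice junction (chr9:39316654-39319494, plus strand). For Il1rl1 the probes are those of variant 1, the short transcript of secreted ST2 (chr9:39617225-39617284), of variant 2, which encodes the membrane receptor and whose probe crosses a junction over 1468 bases (chr9:39619275-39620742), and of the predicted variant X4 (chr9:39626701-39626760), all on the plus strand. For Il1rap they are those of variant 1 (chr11:76113640-76113699) and variant 2 (chr11:76092261-76092320), both on the minus strand. The probes of the splice junctions and of Il1rap variant 1 are shown whole, and the others by their first 30 bases.
Il1rn, NM_022194, first 30 bases: ccagagtatgtgttatttgtgctcatggaa
Il1r2, NM_053953, whole probe: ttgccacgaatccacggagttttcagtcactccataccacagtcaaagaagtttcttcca
Il1rl1 variant 1, NM_013037, first 30 bases: tttttaattcacctgttgctattcaaatca
Il1rl1 variant 2, NM_001127689, whole probe: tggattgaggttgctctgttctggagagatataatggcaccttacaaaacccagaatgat
Il1rl1 variant X4, XM_006244742, first 30 bases: tatagagtgagttctagggcaccagagctt
Il1rap variant 1, NM_012968, whole probe: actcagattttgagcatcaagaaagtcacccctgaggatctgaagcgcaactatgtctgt
Il1rap variant 2, NM_001167840, first 30 bases: cttcccatttccccctgtaaataatatgct
A search of all probes on either strand found no probe of another gene that shared a run of 20 bases with these, except 1 probe on the opposite strand for Il1rl1 variant X4.

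None of the 10 members was called on either day. On D0, 1.79% of all genes tested were called (412 of 23010), and on D28 0.756% (174), so that a list of this size would hold few calls at these rates. For all 10 members the exposed and control rats overlapped on both days, against groups without overlap in 4.31% of all genes on D0 and 1.22% on D28. At an unadjusted p below 0.05 stood Il1rn and Il1r2 on D0 and Il1rn on D28, beside 11.9% and 11% of all genes. The median log2 fold change of the members was 0.10 on D0 and 0.18 on D28, and that of all genes was -0.0007 and -0.0055. On D0 the antagonist Il1rn had the lowest p of the members, followed by the decoy receptor Il1r2, and on D28 Il1rn again had the lowest.

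**Figure D1:**
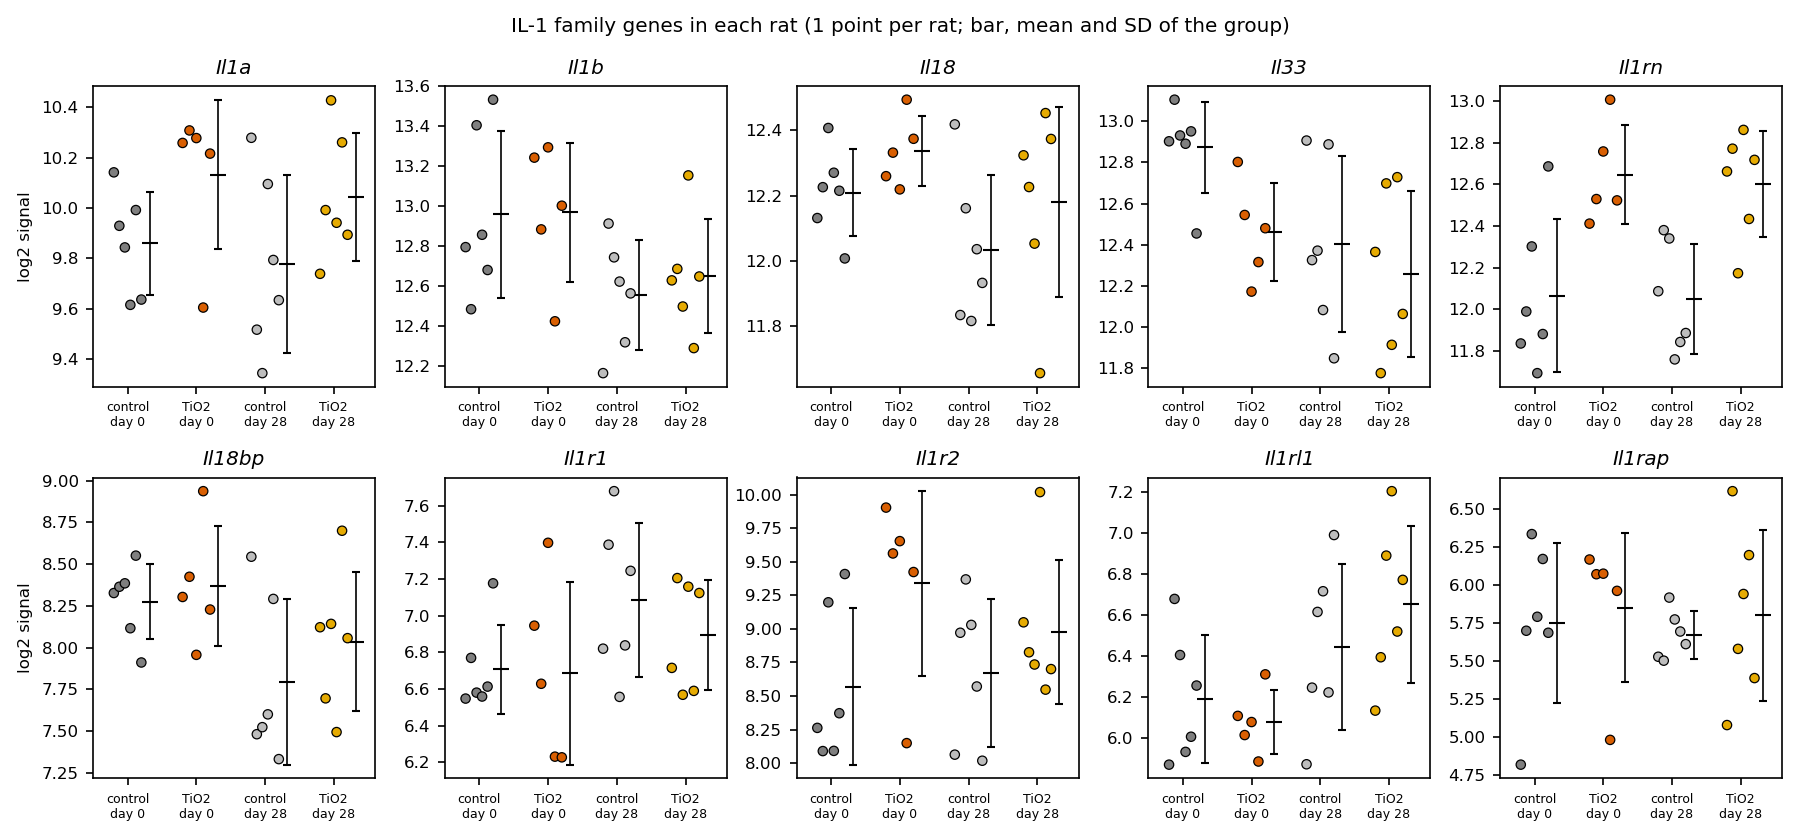
Log2 signal (vertical axis) of each IL-1 family gene in each rat, by group (horizontal axis); each point is 1 rat and the bar beside the points is the mean and SD of the group. The mean of Il1rn is 0.58 and 0.56 log2 units higher in exposed rats on D0 and D28, and that of Il1b 0.01 and 0.10.

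Il1rn, the receptor antagonist, had log2 signals of 12.41, 12.53, 12.76, 13.01 and 12.52 in the 5 exposed rats of D0. In the 6 controls of D0 the lowest was 11.69, the median 11.93 and the highest 12.69. All exposed rats were thus above 5 of the controls, but only 2 of 5 were above all of them, since control replicate 6 stood at 12.69. The means were 12.65 ± 0.24 (SD, n = 5) and 12.06 ± 0.37 (SD, n = 6), a log2 fold change of 0.58 (SE 0.17), or 1.498-fold, with an adjusted p of 0.0771. On D28 the exposed rats ranged from 12.17 through a median of 12.69 to 12.86, and the controls from 11.76 through 11.99 to 12.38. Here 5 of 6 exposed rats were above all controls. The means were 12.60 ± 0.26 (SD, n = 6) and 12.05 ± 0.26 (SD, n = 6), a log2 fold change of 0.56 (SE 0.16), or 1.47-fold, with an adjusted p of 0.114.

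Il1rn therefore missed both the adjusted p and, narrowly, the fold limit on each day alone. Without control replicate 6 of D0 the log2 fold change of D0 was 0.71 and the adjusted p 0.0188, which is a call. With slide as a random block the adjusted p of D0 was 0.0385 at a log2 fold change of 0.57, under the fold limit. Averaged over both days, the log2 fold change of Il1rn was 0.57 (SE 0.12, 95% confidence interval 0.32 to 0.82), 1.48-fold, with an adjusted p of 0.00456. That p was past the threshold and the fold was just under the limit. Genes past the adjusted p alone and higher in exposed rats made up 3.05% of all genes in this comparison, and genes past both limits in either direction 1.87% (430), of which no member. The effect did not differ detectably between the days, with a difference in log2 fold change of -0.03 (SE 0.24, 95% confidence interval -0.52 to 0.47, adjusted p 0.9998).

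The 10 spots of the Il1rn probe allowed the error of the array itself to be set beside that between rats. Within an array the SD of the spots ranged from 0.029 to 0.080 log2 units with a median of 0.061, and between rats of a group the pooled SD was 0.29. Among rats hybridised on the same slide and killed on the same day, exposed rats had the higher Il1rn in 7 of 7 slides and days, by 0.07 to 1.15 log2 units. The smallest of these differences came from slide 5 on D0, which held control replicate 6. Each comparison had only 1 or 2 rats on either side, and the share of all genes with such a count was not computed. With slide as a fixed block the log2 fold change was 0.56 on D0 (adjusted p 0.0587), 0.51 on D28 (adjusted p 0.118) and 0.54 over both days (adjusted p 0.00668).

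**Figure D2:**
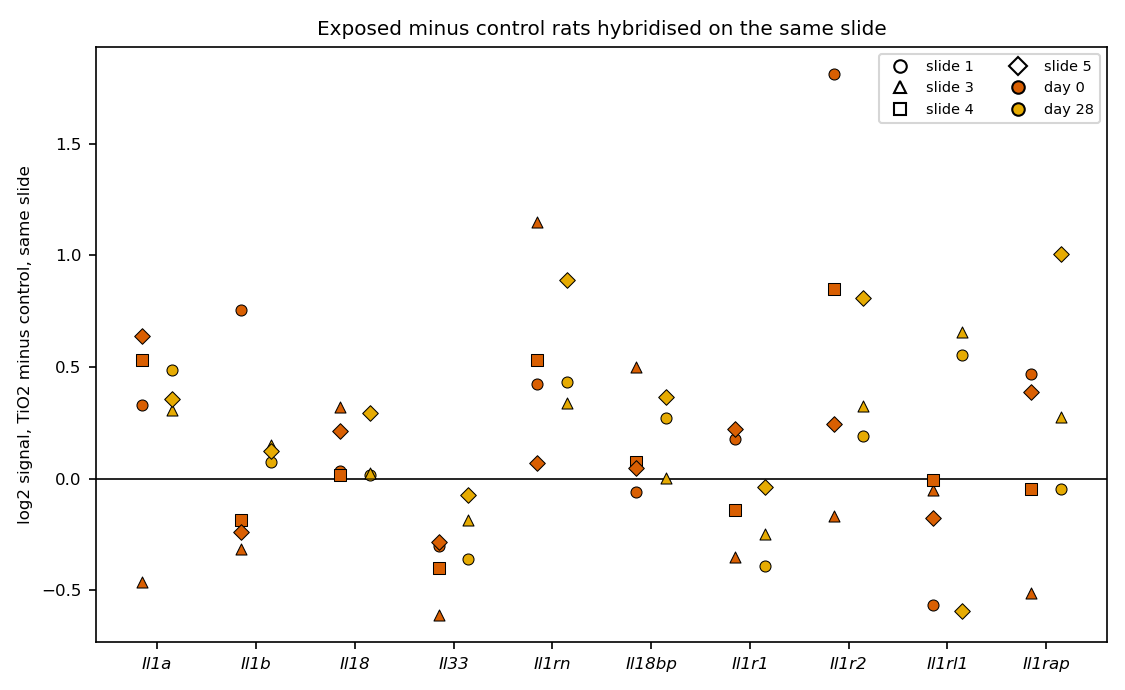
Difference in log2 signal between exposed and control rats hybridised on the same slide (vertical axis) for each IL-1 family gene (horizontal axis), with slides by marker shape and days by colour. Il1rn and Il18 lie above 0 in 7 of 7 slides and days and Il33 lies below 0 in 7 of 7. Each point compares 1 or 2 exposed rats with 1 or 2 controls.

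Il1r2, the decoy receptor, showed the largest log2 fold change of the members on D0. The 5 exposed rats of D0 had log2 signals of 9.90, 9.56, 9.65, 8.15 and 9.42, and the controls ranged from 8.09 through a median of 8.32 to 9.41. Of the exposed rats 4 of 5 were above all controls, and replicate 4 lay near the lowest controls. The log2 fold change was 0.77 (SE 0.34, 1.70-fold), with an adjusted p of 0.342. Without exposed replicate 4 it was 1.06 with an adjusted p of 0.104. When each array was weighted by its quality the log2 fold change was 0.93 and the adjusted p 0.0452, which is a call.

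On D28 the exposed rats had Il1r2 signals from 8.55 through a median of 8.78 to 10.02, and the controls from 8.02 through 8.77 to 9.37. The medians were close together, and the mean of the exposed rats rested on replicate 4 of that group. The log2 fold change was 0.31 (SE 0.32, adjusted p 0.827), and 0.10 without that rat. Over both days it was 0.54 (SE 0.24, adjusted p 0.224).

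Among the agonists, Il1b differed little between exposed and control rats, with log2 fold changes of 0.01 (SE 0.20, 95% confidence interval -0.40 to 0.42) on D0 and 0.10 (SE 0.19, interval -0.30 to 0.49) on D28. Both intervals lie within the fold limit. The exposed rats of D0 had 13.24, 12.88, 13.29, 12.42 and 13.002, inside the control range of 12.49 to 13.53 except for replicate 4. On D28 the controls ranged from 12.17 to 12.91 and the exposed rats from 12.29 to 13.15. Adjusted p-values were 0.998 and 0.932.

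Il1a, the other agonist, had log2 signals of 10.26, 10.31, 10.28, 9.61 and 10.22 in exposed rats of D0, against 9.62 through 9.89 to 10.14 in controls. As for Il1r2, 4 of 5 were above all controls and replicate 4 was not, here below all of them. The log2 fold changes were 0.27 on D0 (SE 0.17, adjusted p 0.633) and 0.26 on D28 (SE 0.16, adjusted p 0.612). Over both days the value was 0.27 (SE 0.12) with an unadjusted p of 0.0318 and an adjusted p of 0.221.

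Since probes differ in brightness, the level of Il1rn cannot be set against that of Il1b, but the change of their difference within each rat can be described. On D0 Il1rn minus Il1b averaged -0.90 ± 0.24 log2 units (SD, n = 6) in controls and -0.32 ± 0.54 (SD, n = 5) in exposed rats, and 3 of 5 exposed rats were above all controls. On D28 the averages were -0.51 ± 0.27 (SD, n = 6) and -0.05 ± 0.21 (SD, n = 6), with 4 of 6 above all controls. The difference thus shifted by 0.57 and 0.46 log2 units towards the antagonist. The shift of D0 rested in part on exposed replicate 4, without which it was 0.35, a check chosen after the data were seen. For Il1r2 minus Il1r1 the shifts were 0.79 and 0.50, with 3 of 5 and 1 of 6 exposed rats above all controls. For Il18bp minus Il18 they were -0.03 and 0.09.

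IL-18 differed little between exposed and control rats, and its binding protein was less closely determined. Il18 had log2 fold changes of 0.13 (SE 0.13, adjusted p 0.873) on D0 and 0.15 (SE 0.12, adjusted p 0.747) on D28, with intervals of -0.14 to 0.39 and -0.11 to 0.40 that lie within the fold limit. The signal was higher in exposed rats in 7 of 7 slides and days, by 0.01 to 0.32, with 1 or 2 rats on either side. Several of these differences were near 0: 0.03 and 0.02 on slide 1, 0.03 on slide 3 on D28 and 0.01 on slide 4. Il18bp had 0.09 (SE 0.23, adjusted p 0.982) and 0.24 (SE 0.22, adjusted p 0.785). Its intervals were -0.38 to 0.57 on D0 and -0.21 to 0.69 on D28, the latter past the fold limit.

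Il33, the alarmin of barrier cells, was the member with the lowest log2 fold change on D0. The exposed rats had 12.80, 12.54, 12.17, 12.31 and 12.48, and the controls ranged from 12.45 through 12.92 to 13.11. Every control but replicate 6, at 12.45, was above every exposed rat. The log2 fold change was -0.41 (SE 0.20, 95% confidence interval -0.83 to 0.01) with an adjusted p of 0.440, and -0.49 with an adjusted p of 0.314 without control replicate 6. On D28 it was -0.15 (SE 0.19, adjusted p 0.877). In each of the 7 slides and days the exposed rats were lower, by 0.07 to 0.61 log2 units, again with 1 or 2 rats on either side.

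The receptors Il1r1, Il1rl1 and Il1rap had several probes each, and the probes are described one by one. Il1r1 had log2 fold changes of -0.02 (SE 0.22) on D0 and -0.19 (SE 0.21) on D28, with adjusted p-values of 0.996 and 0.833. Its probes at the body of the gene, A_44_P463709 and A_44_P379588, gave -0.35 and -0.32 on D28, and the probe A_44_P986010, which lies farthest downstream, gave 0.09. The SD of the probe A_44_P379588 was 0.80 among controls of D28, and that of A_44_P986010 was 0.25. None of these differences passed the threshold.

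Il1rl1, the receptor of IL-33, had log2 fold changes of -0.11 (SE 0.20, adjusted p 0.968) and 0.21 (SE 0.19, adjusted p 0.784). The probe of variant 2, the membrane receptor, gave the largest difference among the receptor probes of Il1rl1. It had log2 signals of 4.36, 4.32, 4.89, 4.35 and 4.40 in exposed rats of D0, and controls ranged from 4.51 to 5.32. All exposed rats but replicate 3 were below all controls, and replicate 4 was not well above background. The log2 fold change was -0.53 (SE 0.19) with an unadjusted p of 0.0124 and an adjusted p of 0.202, and on D28 it was 0.03 (SE 0.18, adjusted p 0.985). The difference between those effects was 0.56 (SE 0.27) with an unadjusted p of 0.0502 and an adjusted p of 0.9999.

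The probe of variant 1, the secreted form, was well above background on 2 of 6 and 1 of 5 arrays of control and exposed rats on D0, and on 3 of 6 and 3 of 6 on D28. The probe of variant X4 was well above background on all arrays and gave 0.12 (SE 0.26) and 0.19 (SE 0.24). Averaging these probes to 1 gene mixes a dim probe with well measured ones.

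Il1rap, the accessory protein shared by the receptors of IL-1 and IL-33, had 0.10 (SE 0.27, adjusted p 0.986) and 0.13 (SE 0.26, adjusted p 0.934) as a gene. The probe of variant 1, well above background on every array, had 8.29, 8.31, 8.39, 8.34 and 8.20 in exposed rats of D0 and a mean of 8.08 ± 0.14 (SD, n = 6) in controls. Its log2 fold change was 0.22 (SE 0.10) with an unadjusted p of 0.0397 and an adjusted p of 0.384 on D0, and -0.07 (SE 0.10) on D28. The probe of variant 2 was well above background on 1 of 6, 3 of 5, 1 of 6 and 2 of 6 arrays of the control and exposed groups of D0 and D28, and its SD among rats reached 1.08. The SD within groups was 0.16 to 0.56 for Il1rap as a gene and 0.069 to 0.20 for the probe of variant 1.

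**Figure D3:**
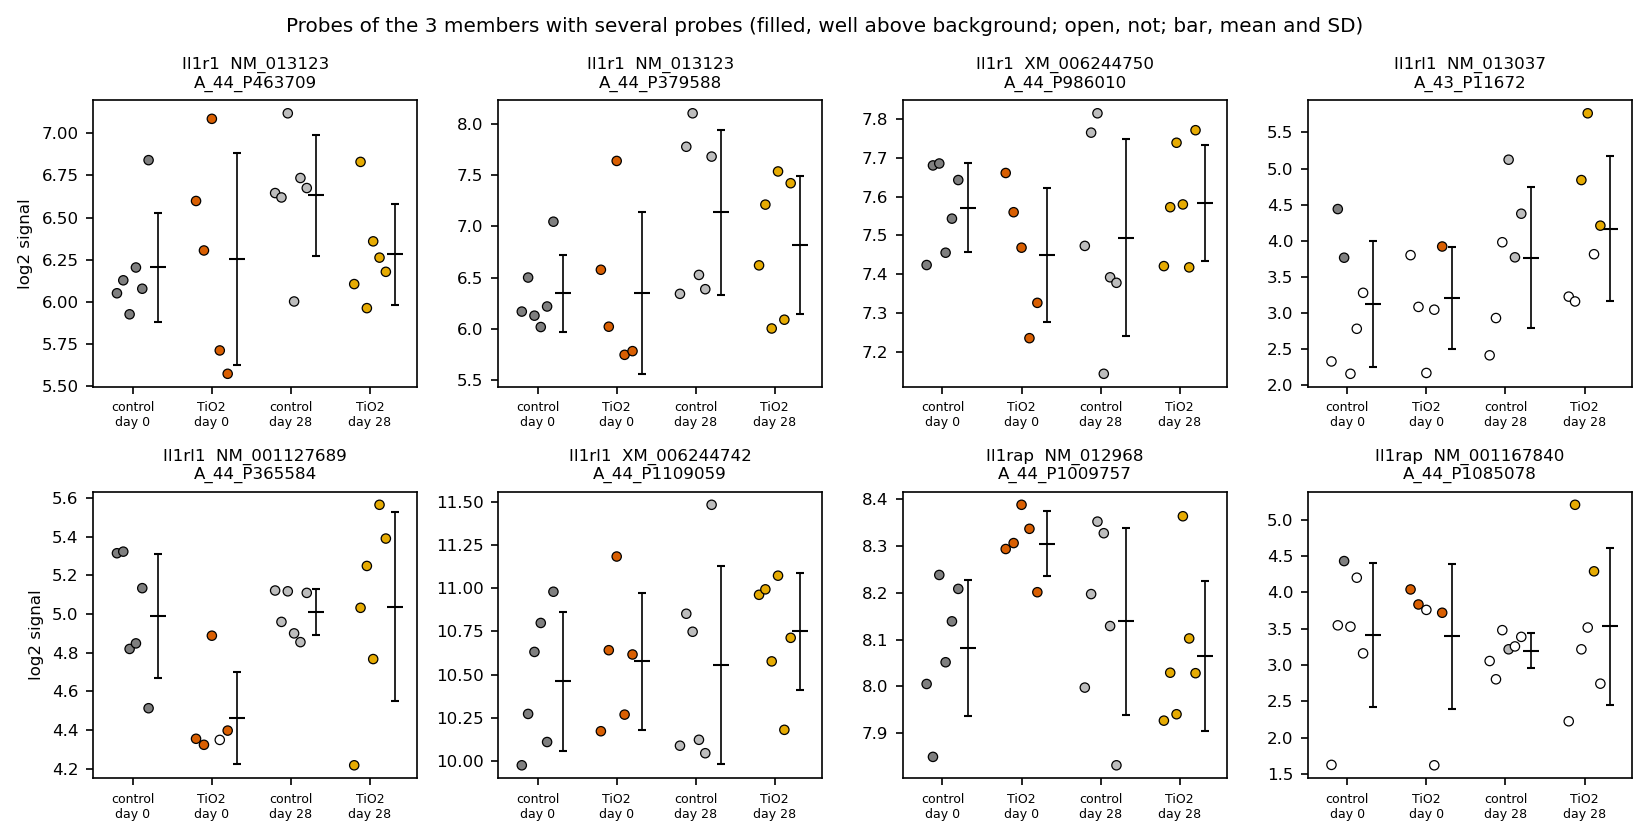
Log2 signal (vertical axis) in each rat, by group (horizontal axis), for the 8 probes of Il1r1, Il1rl1 and Il1rap; filled points are well above background, open points are not, and the bar is the mean and SD. The probe of Il1rl1 variant 2 has a log2 fold change of -0.53 on D0 and 0.03 on D28, neither past the threshold, and the probes of Il1rl1 variant 1 and Il1rap variant 2 are mostly open.

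**Figure D4:**
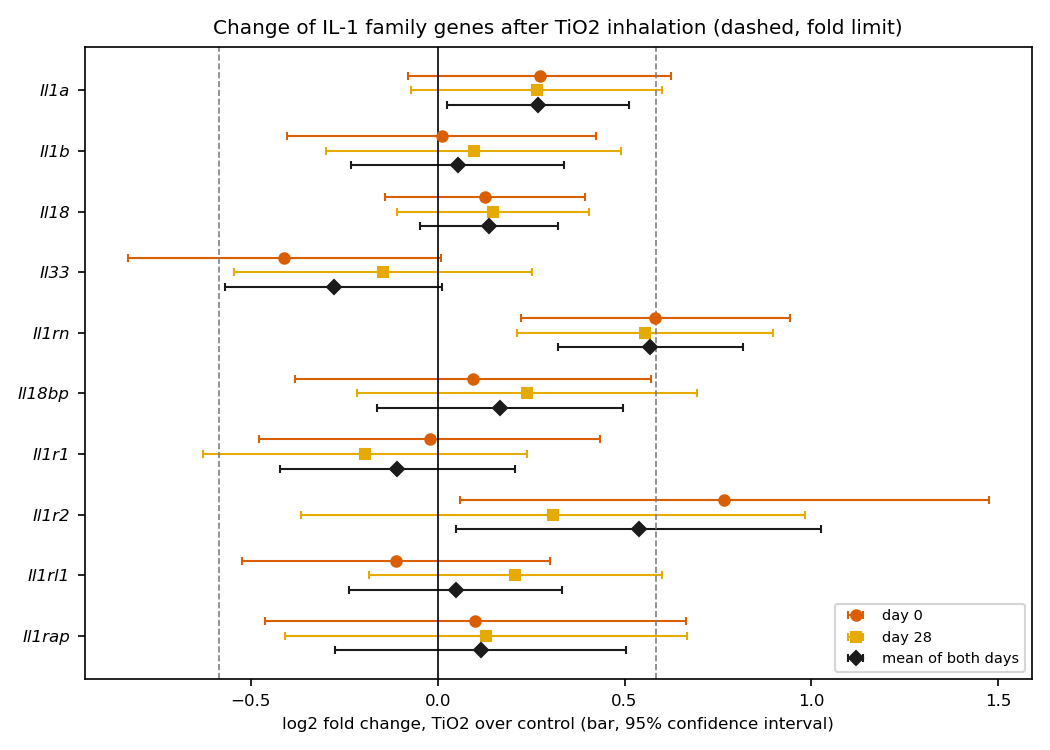
Log2 fold change of exposed over control rats (horizontal axis) with its 95% confidence interval for each IL-1 family gene (vertical axis) on D0, on D28 and averaged over both days; dashed lines mark the fold limit. The intervals of Il1rn lie wholly above 0 on D0, on D28 and over both days, those of Il1r2 on D0 and over both days, and that of Il1a over both days.

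On D0 the 95% confidence intervals of 5 members lay within the fold limit on both sides (Il1b, Il18, Il18bp, Il1r1 and Il1rl1), and on D28 those of 3 members (Il1b, Il18 and Il33). The intervals of the other members reached past the fold limit on at least 1 side. Those of Il1rl1 and Il1r1 are for the mean of several probes and do not bound each probe. On D0 the probe of Il1rl1 variant 2 had -0.53 (SE 0.19), near the fold limit. The probe A_44_P379588 of Il1r1 had 0.01 (SE 0.39). Intervals of single probes were not computed. The difference between the effects of D28 and D0 was called for none of the 10 members, against 0.0304% of all genes (7), and its lowest unadjusted p among the members was 0.256.

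The recovery period itself was compared in each arm. Between D0 and D28 control rats were called at 0.608% of all genes (140) and exposed rats at 0.352% (81), with no member among them. In controls, Il33, Il18bp and Il1b had lower means on D28, with log2 differences of -0.47 (SE 0.19, adjusted p 0.293), -0.48 (SE 0.22, adjusted p 0.349) and -0.40 (SE 0.19, adjusted p 0.364). For Il33 and Il18bp, 4 of 6 controls of D28 were below all controls of D0. The share of all genes with such a count was not computed. The other controls of D28, replicates 1 and 5, were those on slide 3. They had 12.91 and 12.89 for Il33, against 12.90 and 12.95 in the D0 controls of that slide. For Il18bp they had 8.54 and 8.29, against 8.33 and 8.55. On slides 1 and 5 the controls of D28 were below the control of D0 for both genes. The part of slide in these differences was not tested. In exposed rats Il1rl1 had the largest log2 difference, 0.57 (SE 0.20, adjusted p 0.387), and 5 of 6 rats of D28 were above all those of D0. By probe of Il1rl1 the log2 difference was 0.57 for variant 2, well above background on 4 of 5 and 6 of 6 exposed arrays, and 0.17 for variant X4. The probe of variant 1 gave 0.97 but was well above background on 1 of 5 and 3 of 6 of these arrays.

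The genes around the family are given from lists by role. Of the other ligands and receptors of the family, 10 were tested and none was called on either day. Il18r1, the receptor chain that binds IL-18, had log2 fold changes of 0.11 and -0.02. Il36b and Il36rn, an agonist of the IL-36 branch and its antagonist, had -0.35 and 0.19 on D0, and Sigirr, an inhibitory receptor, had 0.02. Of 22 genes of receptor signalling none was called on either day, and the median log2 fold changes were 0.04 and 0.05. Myd88, the adaptor of the receptors, had 0.27 on D0 (adjusted p 0.269) and Irak3, an inhibitory kinase-like member, had 0.20 (adjusted p 0.558). Of 11 genes of processing and release none was called. Nlrp3 and Pycard, the sensor and adaptor of the inflammasome, had 0.11 and 0.10 on D0 and 0.08 and 0.15 on D28. Casp1, which cleaves both precursors, had a missing value on 1 array and was not tested.

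Genes that IL-1 is known to induce, among other stimuli, included several of those called. On D0, 5 of 25 were higher in exposed rats and none was lower, with a median log2 fold change of 0.21. They were Ccl7, a monocyte chemokine, with a log2 fold change of 1.99 (SE 0.30, adjusted p 0.000625), Lcn2, an iron-binding acute phase protein, with 1.65 (SE 0.28, adjusted p 0.00139), Ccl2, the main monocyte chemokine, with 1.46 (SE 0.29, adjusted p 0.00657), Sele, the endothelial selectin, with 1.23 (SE 0.30, adjusted p 0.0254), and Bcl3, a regulator of NF-κB, with 0.65 (SE 0.14, adjusted p 0.00959). On D28 none of the 25 was called, and the log2 fold changes of Ccl7, Lcn2 and Ccl2 were 1.04, 0.73 and 0.92. Over both days 5 of 25 were higher, where Cxcl2, a neutrophil chemokine, with 0.96 (SE 0.23, adjusted p 0.0133) took the place of Bcl3.

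Of 14 genes that respond to IL-33 and ST2, 1 was called on each day. It was Retnla, a secreted product of alternatively activated macrophages and epithelium that also answers IL-4 and IL-13, with log2 fold changes of 3.25 (SE 0.31, adjusted p 6.85e-06) on D0 and 2.64 (SE 0.29, adjusted p 0.000104) on D28. Over both days Areg, a growth factor of repair, was also higher, by 0.75 (SE 0.19, adjusted p 0.0196). Il5 and Il13, the cytokines most typical of this axis, had -0.01 (SE 0.87) and -0.41 (SE 0.35) on D0 with adjusted p-values of 0.999 and 0.818. On D28 they had 0.31 (SE 0.83) and 0.20 (SE 0.33). Il13 was well above background on 4 of 6, 3 of 5, 2 of 6 and 2 of 6 arrays of the control and exposed groups of D0 and D28. Il4 was so on 2 of 6, 0 of 5, 1 of 6 and 0 of 6, and no fold is given for it. Il13 and Il4 were thus measured too poorly to tell a change from none. Il5 was well above background on 5 of 6, 4 of 5, 6 of 6 and 5 of 6 arrays of these groups. Its SD within groups was 1.25 to 1.70, so that its change was not closely determined. Of 10 genes of the interferon γ axis downstream of IL-18 none was called. Cxcl10 and Cxcl11, chemokines of that axis, had 1.01 and 1.41 on D0 with adjusted p-values of 0.323 and 0.215, and Ifng was well above background on 0 of 6 control and 1 of 5 exposed arrays.

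Glucocorticoids are known to lower IL-1 cytokines and to raise Il1r2, and 10 genes that they induce were examined beside the family. On D0, 4 of 10 were lower in exposed rats and none was higher: Zbtb16 by -1.99 (SE 0.53, adjusted p 0.0435), Per1 by -1.41 (SE 0.33, adjusted p 0.0182), Klf9 by -0.86 (SE 0.16, adjusted p 0.00312) and Errfi1 by -0.68 (SE 0.18, adjusted p 0.0428), all as log2 fold changes. On D28, Zbtb16 with -2.23 and Fkbp5 with -1.02 were lower, with adjusted p-values of 0.0294 and 0.0266. The part of these genes in the members' values was not tested.

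Markers of cell types moved with some of the members. The mean log2 signal of 9 macrophage markers ranged from 8.22 to 8.50 in controls and from 8.62 to 8.92 in exposed rats of D0, and from 7.98 to 8.66 and 8.23 to 8.79 on D28. One of the 9, Siglec1, a macrophage sialoadhesin, was called, with a log2 fold change of 0.89 on D0 (SE 0.16, adjusted p 0.00262). Cd68 had 0.55 on D0 (adjusted p 0.00293) and 0.42 on D28 (adjusted p 0.0294), past the adjusted p but under the fold limit. The largest log2 fold change of the 9 on D0, 1.04 (adjusted p 0.272), was that of Marco, a dim marker. It was well above background on 0 of 6 control and 2 of 5 exposed arrays of D0. Pparg and Csf1r had -0.04 and 0.01, and the median of the 9 was 0.30. The mean of the macrophage list therefore moved on D0 with Il1rn, and its part in the result was not tested. Myl7, an atrial muscle gene found in the walls of pulmonary veins in rats, was lower on both days, with log2 fold changes of -0.60 (adjusted p 0.00989) and -0.63 (adjusted p 0.0107).

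Neutrophil markers overlapped between exposed and control rats in the RNA of the lobe, which is not a cell count. In lavage of another lobe, the authors reported a higher percentage of neutrophils in exposed elderly rats on both days. The mean of 10 markers ranged from 7.05 to 7.86 in controls and 6.92 to 7.65 in exposed rats of D0, and from 6.72 to 7.73 and 6.97 to 7.42 on D28. The markers went both ways, and the median log2 fold change of the 10 was -0.04 on D0 and -0.16 on D28. Cxcr1 had 0.46 on D0 (adjusted p 0.0877) and 0.32 over both days (adjusted p 0.0492), under the fold limit. S100a9 had 0.63 on D0 and 0.61 on D28 (adjusted p 0.612 and 0.591), and Mmp8 had -0.06 and -0.68 (adjusted p 0.996 and 0.557). None of the 10 was called on either day, and over both days Ngp, a granule protein, was called lower (adjusted p 0.0492). No fold is given for Ngp, since it was well above background on 4 of 6, 0 of 5, 5 of 6 and 1 of 6 arrays of the control and exposed groups of D0 and D28. Ltf was well above background on no array and Mpo on 2 of 6, 3 of 5, 1 of 6 and 0 of 6 arrays of the control and exposed groups of D0 and D28, while S100a8 and S100a9 were so on all arrays. For the barrier cells that can hold IL-33, the mean of 4 alveolar type I markers ranged from 13.97 to 14.21 in controls and 13.65 to 13.95 in exposed rats of D0. The mean of 8 endothelial markers ranged from 12.02 to 12.21 and from 11.74 to 11.93. Both lists were lower without overlap on D0 with Il33, and no gene of either was called on either day. Of the other barrier lists, that of type II pneumocytes was higher without overlap on D0. Those of ciliated and of secretory airway cells overlapped. The part of all these lists in the result was not tested.

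Of 18 lists of cell type markers, the mean was higher without overlap in exposed rats of D0 for 2 and lower without overlap for 3, and on D28 it was lower without overlap for 1. Beside macrophages, alveolar type I cells and endothelium, the lists of D0 were 8 markers of type II pneumocytes, the surfactant-making cells, and 5 of smooth muscle. The type II markers ranged from 14.56 to 14.67 in controls and 14.74 to 14.98 in exposed rats, and the smooth muscle markers from 9.21 to 9.45 and from 9.05 to 9.20. On D28 both lists overlapped, and no gene of either was called on either day. The list of D28 was that of 3 cardiac muscle markers, Myl7 among them, with 10.27 to 10.84 in controls and 9.86 to 10.20 in exposed rats. The part of these lists in the members' values was not tested.

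The members were then compared with each other across rats, after the mean of each group was taken away. This step removes the mean effect of exposure, but not differences between exposed rats in their response to it. Over 23 arrays and 7 pairs examined, Il1b and Il1r2 had the closest relation, with a Pearson r of 0.87 (permutation p 2e-05, adjusted 0.00014) and a Spearman rho of 0.85 (permutation p 4e-05, adjusted 0.00028). It was 0.83 without the 2 arrays farthest from the median of Il1b, 0.87 with slide removed as well, and 0.87 and 0.88 within slides 1 and 3, which had 6 and 7 arrays. Within groups, rats with more Il1b thus had more Il1r2. Il18 and Il18bp had r 0.70 (permutation p 0.00092, adjusted 0.00322) and rho 0.63 (permutation p 0.00439, adjusted 0.0154), with 0.57 without the 2 farthest arrays and 0.80 with slide removed.

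Il1b and Il1rn had r 0.47 (permutation p 0.05, adjusted 0.0876), and within slide 3 the value was -0.94 over 7 arrays. Il1r1 and Il1r2 had r 0.49 (permutation p 0.0309, adjusted 0.072). For Il1a and Il1b, Il33 and Il1rl1, and Il1r1 and Il1rap, r was -0.23, -0.36 and 0.28 with adjusted permutation p-values of 0.308, 0.23 and 0.235. The ligand Il33 and its receptor thus had no relation that could be told from none. The values of Il1rl1 and of Il1rap were means over probes that included a dim one, and single probes were not compared in this way.

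**Figure D5:**
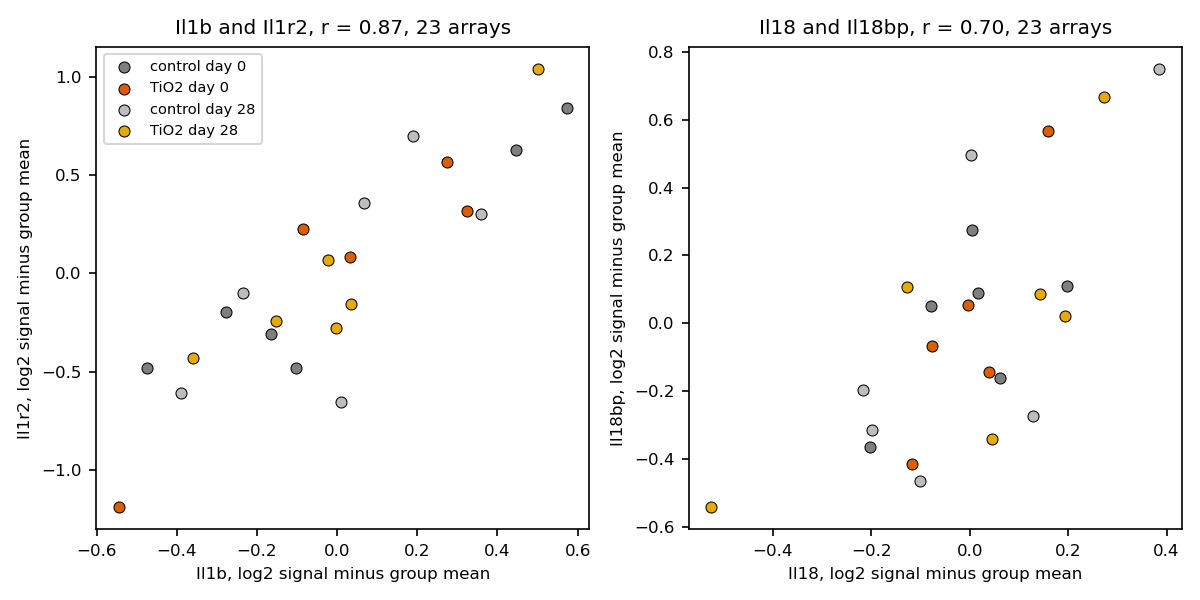
Deviation of log2 signal from the group mean for Il1b (horizontal) and Il1r2 (vertical) on the left and for Il18 and Il18bp on the right, with 1 point per array and groups by colour. Arrays of all groups lie along a rising line, with r of 0.87 and 0.70.

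The members themselves were left out of the next search among the 23010 genes. Those whose deviations were most like a member's over the 23 arrays are given as a description, since such genes share library, slide and array. For Il1r2 they were S100a9, S100a8, the calgranulins that neutrophils carry in abundance, and Slc16a3, with r of 0.96, 0.95 and 0.90. For Il1b they were LOC102546520, LOC108349232 and S100a9 with 0.87, 0.86 and 0.86, and the mean of the neutrophil markers had r of 0.85 with Il1r2 and 0.72 with Il1b. For Il1rn they were Unc93b1, which carries nucleic acid receptors to the endosome, N4bp2l1 and Mpeg1, a macrophage pore protein, with 0.82, 0.79 and 0.79. Its r with the mean of the macrophage markers was 0.16 and with the neutrophil markers 0.40. For Il18 they were Fcna, Aoah and Kctd14 with 0.89, 0.88 and 0.86, of which Aoah inactivates endotoxin.

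For Il33 the most alike were Laptm4b, Arcn1 and Pgp with 0.96, 0.95 and 0.94, for Il18bp they were RT1-DMa, Ctsz and Smyd2 with 0.95, 0.95 and 0.93, and for Il1r1 they were Mmut, Cfap97 and Kpna3, each with 0.94. These members followed a pattern that many genes shared, since 675, 650 and 475 genes had an r above 0.8 with Il33, Il18bp and Il1r1, against 21 with Il1r2, 20 with Il18, 8 with Il1b and 1 with Il1rn. Il1a and Il1rap had none, and Il1rl1 had 6. For Il1rl1 the most alike were Pax5, Cpeb2 and LOC103692125 with 0.87, 0.81 and 0.81, for Il1a they were Sox15, Stmn1 and Rtn4r with 0.77, 0.76 and 0.76, and for Il1rap they were Tmem67, LOC108350029 and Med28 with 0.76, 0.72 and 0.70. The values of Il33, Il18bp and Il1r1 thus lay on an axis of variation between arrays that was common to many genes, and the nature of that axis was not tested.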

How the data were processed

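The authors deposited the scanner output of each array and 1 table of all arrays, both as intensity on a linear scale; the processed signal is corrected for background, per the file headers, by Agilent Feature Extraction (11.0.1.1 for 22 arrays, 12.0.1.1 for the other). The deposited table is quantile normalised median signal and served as an alternative. Outlier spots were left out, and probes were kept if 5 or more arrays exceeded the 95th percentile of the 308 negative controls (40417 of 45598). From the deposited intensities, log2 values were quantile normalised, and spots were averaged by probe and probes by symbol (23010 genes). One model over all 23 arrays (limma 3.58.1, R 4.3.3) gave contrasts, with Benjamini-Hochberg adjustment over all genes, after a test on simulated data. Arrays limit precision by their number. Each array was 1 rat, so p-values measure the spread between rats, together with that between slides, which the main model left out. With slide as a random block, the correlation between arrays of a slide was 0.29. Replicate numbers did not pair the rats. The sixth exposed array of D0 and young rats were not analysed here.

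All 10 members and all their probes are given. Of each gene list, genes past both limits were counted and up to 5 with the largest change named, with a few others chosen after their values were seen. For each member the 3 genes with the highest r are named, other members left out. The members and lists were chosen with earlier results of these data known. Alternatives were another scaling, background correction, filter, probe rule, variance model, slide or replicate block, and each array left out. Leaving out arrays for the differences within a rat was added after seeing the data.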

Additional observations from a re-analysis of the deposited data

Results flagged for a closer look

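In 6 of the 40 combinations of member and group, 1 rat stood apart from the others of its group by Dixon's criterion, which chance alone meets in about 1 group in 20, or 2 of 40. Exposed replicate 4 of D0 was the lowest of its group for Il1a (9.605, others 10.22 to 10.31), for Il1r2 (8.15, others 9.42 to 9.90) and for Il1rap (4.98, others 5.96 to 6.17). The low Il1rap came from the probe of variant 2, at 1.62 and not well above background in this rat, while on the probe of variant 1 the rat was at 8.34, the second highest of its group of 5. The same rat had the highest Il1rn of its group. Control replicate 6 of D0 was the lowest for Il33 (12.45, others 12.89 to 13.11) and the highest for Il1r1 (7.18, others 6.55 to 6.77). Exposed replicate 4 of D28 was the highest for Il1r2 (10.02, others 8.55 to 9.05).

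Without exposed replicate 4 of D0, the log2 fold change of D0 was 0.41 for Il1a, 1.06 for Il1r2, 0.32 for Il1rap and 0.49 for Il1rn, with adjusted p-values of 0.324, 0.104, 0.827 and 0.233.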

How the results depend on the processing

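Counts of members called stayed at 0 in every alternative run on D28, for the difference between days and for both comparisons of D28 with D0. On D0 the count was 1 with array quality weights (Il1r2), and 0 to 1 with each array left out, where control replicate 6 decided (Il1rn). Over both days it was 1, always Il1rn, with 75th percentile scaling, cyclic loess, the replicate block or no fold limit, and 0 to 1 with each array left out. Over all alternatives Il1rn over both days ranged from 0.52 to 0.63, with adjusted p from 0.00101 to 0.0107. Rats of the same number correlated at -0.25 to 0.43 in their deviations from the group means, and the replicate block changed no other call of a member. The fit on the arrays of a contrast alone does not exist for comparisons that use all 4 groups.

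Genes called on D0 numbered 221 with normexp and 659 without a fold limit against 412. On D28 they numbered 94 and 303 in these settings, 42 with the arrays of the contrast alone, 263 with slide as a random block and 111 without exposed replicate 1 of D28, against 174.

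Directions turned for log2 fold changes under 0.2 in size, none of them called, and the cause was not tested. Il1r1 on D0 was 0.0233 (75th percentile), 0.0112 (median signal), 0.0026 (deposited table), 0.0358 (quality weights), 0.0353 (replicate block), 0.0502 (A_44_P463709), 0.0065 (A_44_P379588) and -0.20 to 0.0929 with each array left out, and on D28 0.0894 (brightest probe, A_44_P986010). Il1b on D0 was -0.0472 and -0.0309 with slide as a fixed and random block and -0.0845 to 0.15 with each array left out, and on D28 -0.0043 to 0.17. Il18bp on D0 was -0.0477 to 0.20 with each array left out. Il1rap on D28 was -0.013 (normexp), -0.0744 (probes well above background), -0.074 (brightest probe, variant 1), -0.0082 (quality weights) and -0.0343 to 0.27 with each array left out, and on D0 -0.021 (variant 2) and -0.0854 to 0.32. Il1rl1 on D0 was 0.115 (brightest probe, X4) and 0.0789 (variant 1), and over both days -0.0506 (probes well above background), -0.25 (variant 2) and -0.0089 to 0.10 with each array left out.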
